A study of Mus musculus with 19 samples.

Results

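Imprinted genes are expressed mainly from the copy inherited from one parent, and 35 mouse imprinted genes were followed here in kidney RNA. They were chosen by symbol as well-known members of the mouse imprinted domains. Of the 35 genes, 32 had a value among the 54146 gene identifiers listed per library, and 21 reached the mean of 1 TPM needed for testing, among 13963 tested genes. Igf2r, Airn and Impact were not analysed here. RNA sequencing of polyadenylated transcripts was done on whole kidneys of B6C3F1/J mice at postnatal day 21, that is 3 weeks of age. The KspCre DKO group held 2 libraries of genotype KspCre Dnmt3ab f/f, in which a Cre recombinase deletes floxed Dnmt3a and Dnmt3b. The control group held 3 libraries of genotype Dnmt3ab f/f, which carry the same floxed genes without Cre. The Ksp-cadherin promoter is active in tubule epithelium, so stroma, vessels, glomeruli and blood cells of the organ should keep both enzymes. The other 14 samples of the series, all bisulfite libraries, are not analysed here.

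Parental imprints are methylation marks at control regions, laid down in the germ line, where Dnmt3a is the main enzyme, and copied at each cell division by Dnmt1. Some control regions carry the mark on the paternal chromosome (Igf2-H19 and Dlk1-Meg3) and most carry it on the maternal chromosome. Many imprinted genes act in fetal growth and are switched down after birth in most organs, the kidney included. KspCre acts long after the germ line, in epithelium that has already inherited its imprints. TPM values do not separate the parental alleles, so the allele named for each gene below is background and was not measured.

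No imprinted gene passed the test on its own. Of the 21 tested imprinted genes, 0 were called higher and 0 lower in KspCre DKO kidneys (limma on log2(TPM + 1), adjusted p below 0.05 over all genes), against a background of 0.165% of all tested genes called in either direction (0.1% higher, 0.0645% lower). At an unadjusted p below 0.05, 0 were higher and 8 were lower, where the background was 4.16% of all genes higher and 6.15% lower. Those 8 were Mest, Dlk1, Meg3, Peg3, Zim1, H19, Grb10 and Phlda2, genes of 6 imprinted clusters. In each of these 8 genes both KspCre DKO libraries lay below all 3 control libraries. Counting Ndn and Gnas, 10 of the 21 tested genes had KspCre DKO levels below every control, a share of 47.6%, against 15.6% of all tested genes. Snrpn and Peg13, 2 of the 21, had KspCre DKO levels above every control, against 10.5% of all tested genes. A log2 fold change below −1 was reached by 9 of the 21, against 5.58% of all tested genes. H19 and Zim1 are among the 8, the 10 and the 9 genes, and Ndn is among the 10 and the 9. All of these passed the filter only through the control libraries, so their lower direction carries little weight. In whole kidney, fewer cells that express a gene and less RNA per cell cannot be told apart.

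The median log2 fold change of the tested imprinted genes, KspCre DKO minus control, was −0.39, against −0.14 for all tested genes, and 16 of 21 lay below 0 (76.2%) against 61.7% of all genes. These figures describe the genes that passed the filter, and H19, Zim1 and Ndn passed it through the control libraries, with KspCre DKO means of 0.23, 0.57 and 0.93 TPM. The KspCre DKO libraries differed from each other. Mitochondrially encoded genes took 22.1% of the TPM in KspCre DKO replicate 1 and 31.0% in replicate 2, against 18.2% to 23.2% in the controls. With TPM rescaled without these genes, the median of the tested imprinted genes was −0.29, against −0.04 for all tested genes. The part of the mitochondrial share in the level of each gene below was not tested. Replicate 2 had 14710 genes above 0 TPM, against 20510 in replicate 1 and 18488 to 20075 in the controls. It listed 5.47% of all tested genes at 0, where the share was 0.466% for replicate 1 and 0.473% to 0.995% for the controls. Among the imprinted genes tested, H19, Meg3, Phlda2 and Ndn were listed at 0 in replicate 2, and none was at 0 elsewhere. Without replicate 2, 15 of 21 imprinted genes lay below 0 with a median of −0.28, where 38.3% of all genes lay below 0 and their median was 0.13. In that refit 0 imprinted genes were called, against 0.0143% of all genes called lower and 0.0215% higher. Without replicate 1, 16 of 21 lay below 0 with a median of −0.65, where 73% of all genes did and their median was −0.39. In that refit, which holds 1 KspCre DKO library, Phlda2, Meg3, Peg3 and Grb10 were called lower, 4 of 21 genes, against 3.34% of all genes called lower and 0.637% higher. Their adjusted p was 0.0234, 0.0406, 0.0472 and 0.0472.

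**Figure D1:**
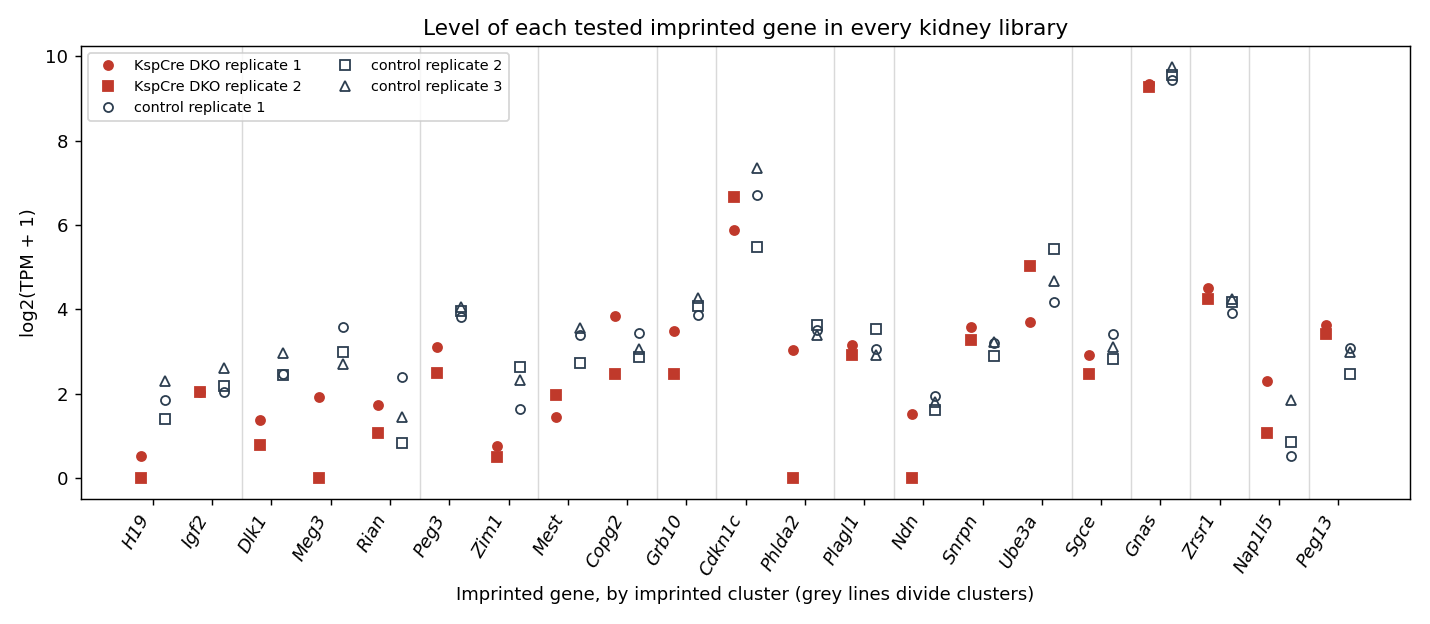
Level of the 21 tested imprinted genes on the log2(TPM + 1) scale (vertical axis) in the 2 KspCre DKO libraries (filled, left) and 3 control libraries (open, right), with genes on the horizontal axis in the order of their clusters. Both filled symbols lie under all open ones for Dlk1, Meg3, Peg3, Zim1, Mest, H19 and Grb10, and overlap them for Igf2, Cdkn1c and Plagl1.

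In the Dlk1-Meg3 cluster on chromosome 12, whose control region is methylated on the paternal copy, the protein gene and the leading noncoding gene were both lower. Dlk1 (ENSMUSG00000040856.17, chr12:109452485-109463336 in GRCm38), a paternally expressed membrane protein of the Notch ligand family that holds back adipocyte differentiation, stood at 1.62 and 0.72 TPM in KspCre DKO kidneys, against 4.53, 4.46 and 6.79 TPM in control kidneys. The highest KspCre DKO value lay below the lowest control value, and the log2 fold change was −1.54 ± 0.39 (SE; limma adjusted p = 0.215). Meg3 (ENSMUSG00000021268.17, chr12:109540996-109571729), a maternally expressed long noncoding RNA, stood at 2.81 and 0 TPM in KspCre DKO kidneys, against 11, 7 and 5.56 TPM in control kidneys. The groups did not overlap (log2 fold change −2.13 ± 0.57 SE, adjusted p = 0.247), and replicate 1 alone was 1.17 below the control mean on the log2(TPM + 1) scale. Rian, a maternally expressed host of small nucleolar RNAs and microRNAs next to Meg3, did not share this: it stood at 2.32 and 1.09 TPM in KspCre DKO kidneys, against 4.26, 0.80 and 1.73 TPM in control kidneys. Its groups overlapped, and its log2 fold change was −0.17 ± 0.53 (SE; adjusted p = 0.936). The microRNA host Mirg and Rtl1, a gene derived from a retrotransposon that acts in the placenta, were near 0. Mirg was at 0 in both KspCre DKO libraries, against 0.39, 0 and 0.49 TPM in the controls. Rtl1 was at 0.02 and 0 TPM in KspCre DKO kidneys, against 0.06 to 0.19 TPM in the controls. Rtl1 overlaps the annotated end of Meg3 and the annotated start of Rian on the opposite strand. The strand setting of the counting is not given in the sources used here.

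Igf2 and H19 are neighbours on chromosome 7 that share enhancers, Igf2 being read from the paternal and H19 from the maternal copy. H19 (ENSMUSG00000000031.16, chr7:142575530-142578146), a noncoding RNA abundant in fetal tissue, stood at 0.45 and 0 TPM in KspCre DKO kidneys, against 2.59, 1.65 and 3.92 TPM in control kidneys. Every KspCre DKO value lay below every control value, at a level where a value of 0 may be a failed estimate. The log2 fold change was −1.58 ± 0.46 (SE; adjusted p = 0.282). Igf2 (ENSMUSG00000048583.16, chr7:142650768-142666816), the fetal growth factor, stood at 3.16 and 3.14 TPM in KspCre DKO kidneys, against 3.10, 3.56 and 5.12 TPM in control kidneys. The KspCre DKO values lay inside the range of the controls, and the log2 fold change was −0.23 ± 0.35 (SE; adjusted p = 0.856).

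The 2 tested genes of the Peg3 cluster at the proximal end of chromosome 7 were both lower, although they are read from opposite parental copies. Peg3 (ENSMUSG00000002265.16, chr7:6703892-6730462), a paternally expressed zinc finger factor tied to growth and maternal behaviour, stood at 7.61 and 4.66 TPM in KspCre DKO kidneys, against 13.2, 14.5 and 15.7 TPM in control kidneys. The controls lay close together and above both KspCre DKO libraries (log2 fold change −1.15 ± 0.32 SE, adjusted p = 0.26). Zim1 (ENSMUSG00000002266.17, chr7:6674444-6696540), a maternally expressed zinc finger gene, stood at 0.71 and 0.42 TPM in KspCre DKO kidneys, against 2.12, 5.18 and 4.05 TPM in control kidneys. Its log2 fold change was −1.56 ± 0.44 (SE; adjusted p = 0.267), and in both KspCre DKO libraries it was under 1 TPM. Usp29, a deubiquitinase gene that starts beside Peg3 on the other strand, was at 0.02 and 0 TPM in KspCre DKO kidneys, against 0.10 to 0.18 TPM in control kidneys.

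Mest (ENSMUSG00000051855.15, chr6:30733506-30748466), a paternally expressed hydrolase-fold protein linked to fat expansion, had the smallest p of the imprinted genes. It stood at 1.75 and 2.90 TPM in KspCre DKO kidneys, against 9.53, 5.66 and 10.8 TPM in control kidneys. The groups did not overlap, and the log2 fold change was −1.52 ± 0.38 (SE; adjusted p = 0.212). Copg2 (chr6:30747554-30896815), which encodes a coat subunit of transport vesicles and whose annotated end overlaps that of Mest, stood at 13.4 and 4.57 TPM in KspCre DKO kidneys, against 9.87, 6.33 and 7.42 TPM in control kidneys. Its KspCre DKO libraries lay on either side of the controls, one above and one below all of them, and its log2 fold change was 0.03 ± 0.44 (SE; adjusted p = 0.986). Grb10 (ENSMUSG00000020176.17, chr11:11930499-12037428), an adaptor that restrains insulin and insulin-like growth factor receptors and is read from the maternal copy outside neurons, stood at 10.2 and 4.51 TPM in KspCre DKO kidneys, against 13.5, 15.95 and 18.2 TPM in control kidneys. Its log2 fold change was −1.09 ± 0.37 (SE; adjusted p = 0.36), and replicate 1 lay nearer to the controls than replicate 2.

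The Kcnq1ot1 domain of distal chromosome 7 holds 2 tested genes that restrain growth. Cdkn1c (ENSMUSG00000037664.13, chr7:143458339-143461059), the maternally expressed cyclin-dependent kinase inhibitor p57, was among the more abundant imprinted genes. It stood at 57.8 and 99.98 TPM in KspCre DKO kidneys, against 104, 43.7 and 162 TPM in control kidneys. The KspCre DKO values lay within the wide range of the controls (log2 fold change −0.24 ± 0.52 SE, adjusted p = 0.898). Mature podocytes are known to express Cdkn1c, and the summed podocyte markers, which include Nphs1, stood at 185 and 147 TPM in KspCre DKO kidneys, against 261, 94.8 and 267 TPM in control kidneys. Control replicate 2 was lowest in both measures, and the part of podocyte content in the Cdkn1c values was not tested. Phlda2 (ENSMUSG00000010760.5, chr7:143501545-143503145), a maternally expressed pleckstrin homology protein that limits placental growth, stood at 7.29 and 0 TPM in KspCre DKO kidneys, against 10.4, 11.3 and 9.53 TPM in control kidneys. Its log2 fold change of −1.98 ± 0.75 (SE; adjusted p = 0.41) was −0.46 without replicate 2, so most of it rests on the value of 0; Cdkn1c was at −0.63 without that library. Of 4053 genes with a control mean from 5 to 15 TPM, 2.64% were listed at 0 in that library, against 0.345% in KspCre DKO replicate 1. The noncoding RNA Kcnq1ot1 and the helix-loop-helix factor gene Ascl2 were under the filter. Kcnq1ot1 was at 0.14 and 0.12 TPM in KspCre DKO kidneys, against 0.19, 0.24 and 0.26 TPM in control kidneys. Ascl2, best known from trophoblast and gut stem cells, was at 0.28 and 1.12 TPM in KspCre DKO kidneys, against 0, 0 and 0.15 TPM in control kidneys.

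Genes of the Snrpn domain on central chromosome 7, known from Prader-Willi and Angelman syndromes, spread in both directions. Ndn (chr7:62348277-62349928), a paternally expressed growth suppressor of the MAGE family, stood at 1.86 and 0 TPM in KspCre DKO kidneys, against 2.87, 2.09 and 2.48 TPM in control kidneys. Its log2 fold change of −1.04 ± 0.52 (SE; adjusted p = 0.538) was −0.28 without replicate 2. Snrpn (chr7:59982495-60450177), which encodes a spliceosomal protein and is read from the paternal copy, stood at 10.9 and 8.64 TPM in KspCre DKO kidneys, against 8.28, 6.45 and 8.38 TPM in control kidneys. It lay above all controls in both libraries, and the log2 fold change was 0.31 ± 0.31 (SE; adjusted p = 0.756). Ube3a, a ubiquitin ligase gene imprinted in neurons and read from both copies elsewhere, stood at 11.95 and 31.8 TPM in KspCre DKO kidneys, against 17.1, 41.9 and 24.5 TPM in control kidneys. Its libraries overlapped (log2 fold change −0.39, adjusted p = 0.81). Magel2, another MAGE family gene, was listed at 0 in all 5 libraries. The ring finger gene Mkrn3 reached at most 0.59 TPM, in KspCre DKO replicate 1, and Peg12 at most 0.63 TPM, in control replicate 3.

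Plagl1, Sgce and Gnas had log2 fold changes between −0.43 and −0.14. Plagl1, a paternally expressed zinc finger factor that regulates other imprinted genes, stood at 7.97 and 6.53 TPM in KspCre DKO kidneys, against 7.35, 10.7 and 6.59 TPM in control kidneys. The groups overlapped, and the log2 fold change was −0.14 ± 0.33 (SE; adjusted p = 0.91). Sgce, also paternally expressed, which encodes epsilon-sarcoglycan of the muscle membrane complex, stood at 6.58 and 4.54 TPM in KspCre DKO kidneys, against 9.68, 6.14 and 7.69 TPM in control kidneys. Its log2 fold change was −0.43 ± 0.34 (SE; adjusted p = 0.695), and its neighbour Peg10, a retrotransposon-derived gene of the placenta, reached no more than 0.48 TPM. Gnas (ENSMUSG00000027523.19, chr2:174284320-174346744), a complex locus with transcripts from either copy that encodes the stimulatory G protein subunit acting downstream of parathyroid hormone and vasopressin receptors, had the highest level of the imprinted genes. It stood at 642 and 614 TPM in KspCre DKO kidneys, against 688, 746 and 862 TPM in control kidneys. The groups did not overlap, yet the log2 fold change was −0.28 ± 0.22 (SE; adjusted p = 0.697), it was 0.054 with quantile normalization, and the files give no values for the separate Gnas transcripts. The amino acid transporter gene Slc38a4 and the proteolipid gene Nnat were under the filter. Slc38a4 was at 1.12 and 0 TPM in KspCre DKO kidneys, against 0.47, 0.46 and 1.81 TPM in control kidneys. Nnat was at 0.44 and 0 TPM in KspCre DKO kidneys, against 0.69, 0.32 and 1.16 TPM in control kidneys.

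Peg13, Zrsr1 and Nap1l5 lie within introns of other genes and had log2 fold changes above 0, none of which passed the test. Peg13 (chr15:72805602-72810324), a paternally expressed noncoding RNA within Trappc9, stood at 11.4 and 9.78 TPM in KspCre DKO kidneys, against 7.47, 4.57 and 6.95 TPM in control kidneys. Both KspCre DKO values exceeded the controls, and the log2 fold change of 0.68 ± 0.33 (SE; adjusted p = 0.526) was the highest of the tested imprinted genes. The host Trappc9, a trafficking complex gene, stood at 14.8 and 11.96 TPM in KspCre DKO kidneys, against 11.5, 8.89 and 9.77 TPM in control kidneys (log2 fold change 0.38, adjusted p = 0.691). Zrsr1, a splicing factor retrogene within Commd1, stood at 21.6 and 17.9 TPM in KspCre DKO kidneys, against 14.1, 17.1 and 18.0 TPM in control kidneys. Its log2 fold change was 0.25 ± 0.29 (SE; adjusted p = 0.789), and its reads may be shared with the gene it was copied from. Its host Commd1, a copper homeostasis gene, lay on the other side: 116 and 74.8 TPM in KspCre DKO kidneys, against 180, 155 and 194 TPM in control kidneys. The log2 fold change of Commd1 was −0.91 ± 0.28 (SE; adjusted p = 0.318). Nap1l5, a nucleosome assembly gene within Herc3, stood at 3.97 and 1.09 TPM in KspCre DKO kidneys, against 0.45, 0.81 and 2.61 TPM in control kidneys, and its groups overlapped (log2 fold change 0.61, adjusted p = 0.734). Without KspCre DKO replicate 1 the log2 fold change of Nap1l5 was −0.018.

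**Figure D2:**
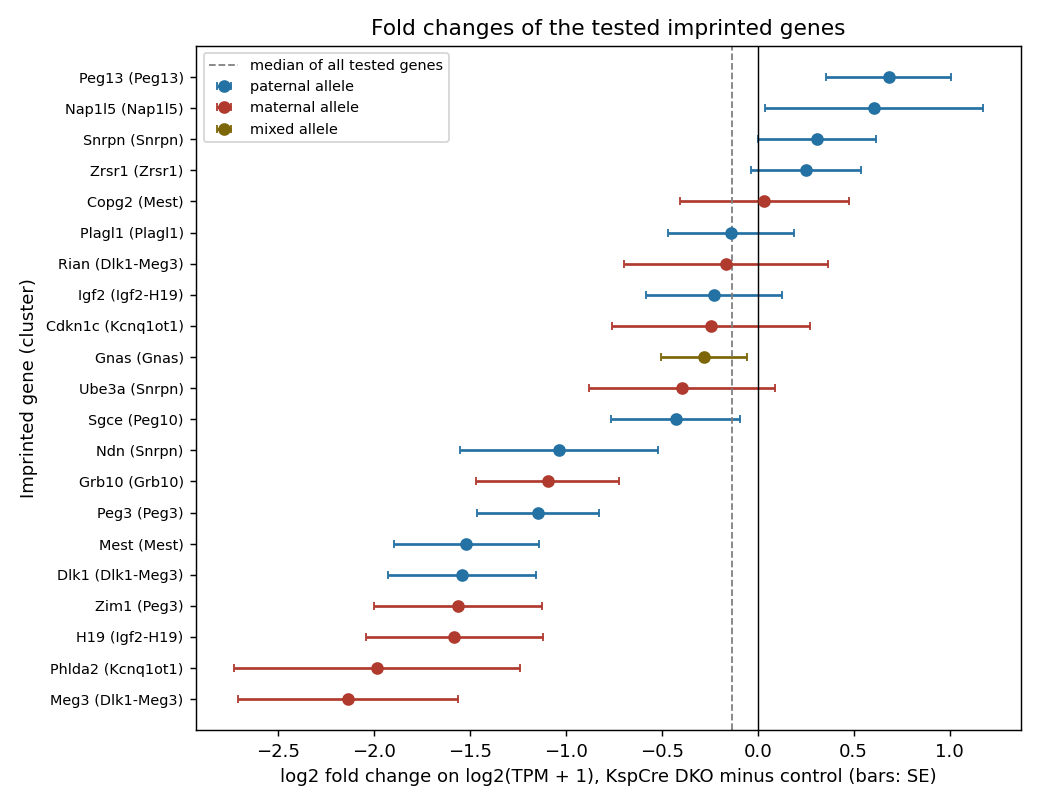
Log2 fold change of each tested imprinted gene (horizontal axis; mean log2(TPM + 1) of KspCre DKO less that of control), with bars for the standard error, genes and their clusters on the vertical axis, and colours for the parental copy each gene is known to be read from (for Ube3a, in neurons). Values run from 0.68 for Peg13 to −2.13 for Meg3, and the dashed line marks the median of all tested genes at −0.14.

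By parental copy, 7 of 11 tested paternally expressed genes lay below 0 with a median of −0.23, and 8 of 9 tested maternally expressed genes did so with a median of −1.09. The 9 count Ube3a, which is maternal in neurons alone. Without it 7 of 8 lay below 0 with a median of −1.33. H19 and Zim1 are among these and passed the filter only through the control libraries. With a filter of mean at least 5 TPM, which leaves out both and other low genes, the maternal median was −0.74 and the paternal −0.14. That filter also takes the mean over both groups. Meg3, Phlda2 and Mest passed it with KspCre DKO means of 1.4, 3.6 and 2.3 TPM. These medians are therefore not free of selection through the controls. Of the genes with an unadjusted p below 0.05, 3 are paternally and 5 maternally expressed. By control region, all 5 tested genes of the Igf2-H19 and Dlk1-Meg3 clusters lay below 0 with a median of −1.54. Of the 16 genes whose control region is methylated on the maternal copy, 11 lay below 0 with a median of −0.34. These classes were not tested against each other, since neighbours in a cluster share regulation and are not independent. The 11 imprinted genes under the filter, Magel2 among them, reached at most 1.81 TPM in any library. In 5 of these (Rtl1, Usp29, Kcnq1ot1, Peg12 and Peg10) both KspCre DKO values lay below all controls, and in 1, Ascl2, both lay above. Of 8958 genes above 0 under the filter, 8.14% and 3.48% did so. Of these 11 genes 9 were listed at 0 in KspCre DKO replicate 2 and 2 in replicate 1, where control libraries listed 2, 3 and 1, so their values carry little weight.

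Ratios of neighbours were taken within each library, and at levels near 1 TPM they depend on the pseudocount. The log2 ratio of Igf2 to H19, each as TPM + 1, was 1.52 and 2.05 in KspCre DKO kidneys, against 0.19, 0.78 and 0.31 in control kidneys. The groups did not overlap, and the ratio was 1.36 higher on average; H19 itself differed by −1.58 and Igf2 by −0.23. With H19 at 0.45 and 0 TPM in KspCre DKO kidneys the pseudocount sets this size: the difference was 3.23 with a pseudocount of 0.1 and 0.43 with 5. The ratio of Mest to Copg2 was −2.39 and −0.51 in KspCre DKO kidneys, against −0.05, −0.14 and 0.48 in control kidneys, again without overlap. By contrast the ratio of Dlk1 to Meg3 was −0.54 and 0.78 in KspCre DKO kidneys, against −1.12, −0.55 and 0.25 in control kidneys. The ratio of Peg3 to Zim1 was 2.33 and 1.99 in KspCre DKO kidneys, against 2.19, 1.33 and 1.73 in control kidneys. Both ratios overlapped between the groups, as did that of Snrpn to Ube3a, and the mean difference of 0.42 for Peg3 to Zim1 was −0.17 with a pseudocount of 5. H19 and Mest separated the groups by themselves, before any ratio was taken. Among single tested genes 26.1% separated the groups in either direction, and no such share was taken for ratios. With 2 and 3 libraries an exact permutation test of a ratio cannot give a p below 0.1, so none is given.

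**Figure D3:**
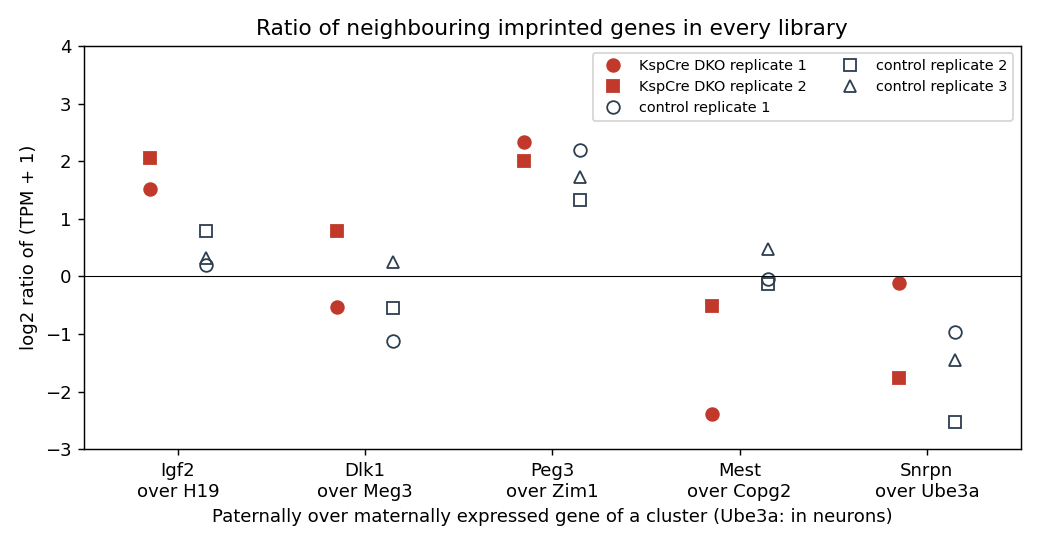
Log2 ratio of a paternally to a maternally expressed gene of the same cluster (Ube3a is maternal in neurons), each as TPM + 1 (vertical axis), in the 2 KspCre DKO libraries (filled) and 3 control libraries (open), for 5 pairs on the horizontal axis. Groups separate for Igf2 over H19, at 1.52 and above against 0.78 and below, and for Mest over Copg2, and they overlap for the other pairs. Among single tested genes 26.1% separate the groups in either direction.

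The start regions of the 5 genes with the smallest p are shown because their CG pairs are the possible sites of DNA methylation. Each is 300 bases at a start taken from RefSeq for GRCm38.p6 and printed on the strand of the gene. Such a start need not be the outer end of the gene span given above. The Dlk1 and Mest windows lie inside that span. CG pairs, the sites that Dnmt3a and Dnmt3b methylate, are in capitals. Where a gene has several starts, the one with the most CG pairs is shown. The Mest window is chr6:30737800-30738099 (plus strand), that of Dlk1 chr12:109452573-109452872 (plus), that of Meg3 chr12:109540746-109541045 (plus), that of Peg3 chr7:6730370-6730669 (minus) and that of Zim1 chr7:6696383-6696682 (minus).
Mest: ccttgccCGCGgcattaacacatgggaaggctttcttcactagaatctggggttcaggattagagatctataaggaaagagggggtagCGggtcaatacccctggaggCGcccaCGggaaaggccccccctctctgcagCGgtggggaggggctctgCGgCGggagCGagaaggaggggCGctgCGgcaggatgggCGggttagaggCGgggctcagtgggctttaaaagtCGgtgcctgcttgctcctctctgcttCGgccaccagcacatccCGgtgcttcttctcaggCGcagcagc
Dlk1: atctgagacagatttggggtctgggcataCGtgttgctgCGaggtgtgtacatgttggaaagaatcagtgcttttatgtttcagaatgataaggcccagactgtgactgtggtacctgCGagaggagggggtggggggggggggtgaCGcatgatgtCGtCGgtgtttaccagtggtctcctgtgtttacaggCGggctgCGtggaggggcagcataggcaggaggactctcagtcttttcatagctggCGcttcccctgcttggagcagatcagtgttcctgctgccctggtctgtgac
Meg3: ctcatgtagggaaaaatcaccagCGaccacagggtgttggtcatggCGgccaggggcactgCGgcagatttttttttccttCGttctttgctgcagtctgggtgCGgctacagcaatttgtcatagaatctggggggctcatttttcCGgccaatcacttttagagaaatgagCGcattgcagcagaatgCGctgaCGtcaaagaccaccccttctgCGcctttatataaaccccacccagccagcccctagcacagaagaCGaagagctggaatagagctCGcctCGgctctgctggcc
Peg3: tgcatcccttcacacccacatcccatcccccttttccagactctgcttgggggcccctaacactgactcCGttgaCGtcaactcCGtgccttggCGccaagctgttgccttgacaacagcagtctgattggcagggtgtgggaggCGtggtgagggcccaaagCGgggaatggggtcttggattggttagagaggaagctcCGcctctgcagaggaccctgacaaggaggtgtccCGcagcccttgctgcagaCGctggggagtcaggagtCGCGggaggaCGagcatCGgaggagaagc
Zim1: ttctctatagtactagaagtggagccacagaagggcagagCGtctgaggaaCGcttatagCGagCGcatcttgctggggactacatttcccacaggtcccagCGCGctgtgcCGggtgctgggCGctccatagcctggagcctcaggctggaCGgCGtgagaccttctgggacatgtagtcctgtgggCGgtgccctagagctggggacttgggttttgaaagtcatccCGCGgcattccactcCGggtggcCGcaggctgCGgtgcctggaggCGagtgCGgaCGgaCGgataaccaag

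Mest held 17 CG pairs, Zim1 20, Meg3 13, Peg3 13 and Dlk1 9. Of the 21 tested imprinted genes 17 had a window in the RefSeq table, and H19, Cdkn1c, Sgce and Peg13 had none. Their CG pairs ranged from 0 in Rian to 45 in Grb10, with a median of 17, against a median of 22 over 9856 tested genes with a window. Genes with small differences spanned nearly the same range, with 0 in Rian, 7 in Snrpn, 10 in Zrsr1, 24 in Igf2, 26 in Plagl1 and 40 in Gnas. The letters TGCCGC, the core recognised by the imprint-protecting factor Zfp57, were searched on both strands. They occurred in 8 of the 17 imprinted windows (47.1%), against 20.2% of the windows of tested genes and 11.6% of all windows in the table. The last share counts every start, where the others take the start of each gene with the most CG pairs, so it is not a like comparison. Mest held 2 matches, Meg3 1 and Zim1 1, and Dlk1 and Peg3 held none. The letters GCCATNTT, a core of the Yy1 site, occurred in 1 imprinted window, that of Ube3a, against 8.74% of the windows of tested genes. These are matches of letters in windows; methylation of the windows was not analysed here, and many imprint control regions lie outside them.

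A list of 44 further imprinted genes was measured beside the 35, and the lists were not tested against each other. Of 21 tested, 11 lay below 0 and 10 above, with a median of −0.10, and 0 were called (limma, adjusted p below 0.05), with 1 higher and 0 lower at an unadjusted p below 0.05, where the background of 4.16% higher comes to a like share. That gene was Ampd3, an AMP deaminase gene, at 57.8 and 40.7 TPM in KspCre DKO kidneys, against 14.2, 17.6 and 23.8 TPM in control kidneys. The groups were well apart (log2 fold change 1.37 ± 0.32 SE, adjusted p = 0.188). Mcts2, a translation factor retrogene, was at 13.5 and 18.7 TPM in KspCre DKO kidneys, against 11.97, 10.7 and 12.2 TPM in control kidneys. Decorin (Dcn), a stromal proteoglycan gene, was at 15.1 and 23.95 TPM in KspCre DKO kidneys, against 29.4, 24.2 and 28.4 TPM in control kidneys.

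Factors that write, copy or protect imprints were measured beside them, and 0 of 14 tested were called. Of these 14, 13 lay below 0 with a median of −0.34, where 61.7% of all tested genes lay below 0. At an unadjusted p below 0.05 (limma) 1 was lower, where the background of 6.15% lower comes to a like share. The deleted genes did not separate the groups. Dnmt3a had 9.98 and 14.2 TPM in libraries labelled KspCre DKO, against 13.2, 18.97 and 15.5 TPM in control kidneys. Dnmt3b had 2.29 and 3.25 TPM in libraries labelled KspCre DKO, against 1.82, 2.86 and 1.98 TPM in control kidneys. Every direction given here therefore rests on the labels. Dnmt1, which copies methylation at replication, was at 8.05 and 7.84 TPM in KspCre DKO kidneys, against 8.78, 8.04 and 8.35 TPM in control kidneys. Zfp57, which guards methylated control regions, was at 5.44 and 5.43 TPM in KspCre DKO kidneys, against 10.5, 8.13 and 9.42 TPM in control kidneys, without overlap (log2 fold change −0.68 ± 0.30 SE, adjusted p = 0.492). Setdb1, a histone methyltransferase of the same silencing complex, was at 9.12 and 3.97 TPM in KspCre DKO kidneys, against 12.99, 14.1 and 14.1 TPM in control kidneys (log2 fold change −1.05 ± 0.36 SE, adjusted p = 0.371).

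The insulin-like growth factor axis, in which Igf2 and Grb10 act, had 0 of 16 tested genes called. At an unadjusted p below 0.05 (limma) 1 was higher and 2 were lower. The background was 4.16% of all tested genes higher and 6.15% lower. Igf1, the postnatal growth factor, was at 8.91 and 1.76 TPM in KspCre DKO kidneys, against 12.7, 15.6 and 23.5 TPM in control kidneys. Both values lay below the controls (log2 fold change −1.76 ± 0.53 SE, adjusted p = 0.306). Irs1, the adaptor below the receptors, was at 2.90 and 0.65 TPM in KspCre DKO kidneys, against 3.68, 5.48 and 5.15 TPM in control kidneys. Igf2bp1, a fetal protein that binds Igf2 and H19 RNA, was at 4.15 and 2.54 TPM in KspCre DKO kidneys, against 1.13, 0.59 and 0.96 TPM in control kidneys. It lay above all controls (log2 fold change 1.18 ± 0.41 SE, adjusted p = 0.375). The receptor gene Igf1r was at 26.5 and 7.17 TPM in KspCre DKO kidneys, against 14.1, 10.5 and 10.4 TPM in control kidneys, one library above and one below all controls.

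The libraries carried the markers of kidney: Cdh16, which encodes Ksp-cadherin, was at 1121 and 906 TPM in KspCre DKO kidneys, against 900.3, 895 and 986 TPM in control kidneys. Several cell type lists were lower beside the imprinted genes, and 0 members of any of these lists were called. Of all tested genes 0.165% were called in either direction. For the counts in these and the lists below, 61.7% of all tested genes lay below 0. At an unadjusted p below 0.05 (limma) 6.15% of all tested genes were lower. Dlk1, Meg3, H19, Peg3 and Mest are known from mesenchymal and dividing cells of young organs. All 19 tested fibroblast and stromal markers lay below 0 with a median of −0.88, 7 of them at an unadjusted p below 0.05, and Dpt, Lum and Mfap4 were listed at 0 in KspCre DKO replicate 2. Their summed level was 249 and 295 TPM in KspCre DKO kidneys, against 538, 262 and 658 TPM in control kidneys. Control replicate 2 lay between the KspCre DKO libraries in this sum. It lay above both in the stromal genes of smallest p, which were picked by p and so tend to separate the groups. The anchor genes Col1a1 and Pdgfra overlapped. Col1a1 was at 6.47 and 9.73 TPM in KspCre DKO kidneys, against 29.0, 5.72 and 20.9 TPM in control kidneys. Pdgfra was at 6.78 and 9.06 TPM in KspCre DKO kidneys, against 6.71, 9.19 and 15.4 TPM in control kidneys. All 12 proliferation genes lay below 0 with a median of −1.09, 5 of them at an unadjusted p below 0.05, and Ccnb1 and Ccnb2 were at 0 in KspCre DKO replicate 2. They summed to 107 and 63.1 TPM in KspCre DKO kidneys, against 188, 90.7 and 166 TPM in control kidneys, with control replicate 2 between the KspCre DKO libraries. Postn (periostin), the stromal gene with the smallest p, was at 3.16 and 0.48 TPM in KspCre DKO kidneys, against 15.9, 10.7 and 28.1 TPM in control kidneys (adjusted p = 0.113). Mmp2, a matrix protease gene, was at 2.62 and 3.98 TPM in KspCre DKO kidneys, against 9.66, 8.06 and 17.8 TPM in control kidneys. The part of stromal and dividing cells in the levels of the imprinted genes was not tested.

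All 8 tested macrophage markers also lay below 0, with a median of −0.99, and summed to 61.1 and 45.5 TPM in KspCre DKO kidneys, against 151, 85.4 and 109 TPM in control kidneys. S100a9 and Fcer1g were at 0 in KspCre DKO replicate 2. The 4 tested adipocyte markers lay below 0 with a median of −0.92, and the 6 listed summed to 139.9 and 89.0 TPM in KspCre DKO kidneys, against 279, 229 and 386 TPM in control kidneys. Fabp4 made up most of these sums, at 90.3 and 75.9 TPM in KspCre DKO kidneys, against 214, 191 and 317 TPM in control kidneys. Lpl overlapped between the groups. Adipoq, which defines fat cells, and Plin1 and Cfd were each at 0 in at least 1 library. Nerve and glia markers summed to 15.3 and 2.47 TPM in KspCre DKO kidneys, against 18.0, 32.9 and 18.4 TPM in control kidneys. Adrenal tissue, which expresses Dlk1, H19 and Meg3 strongly, has markers that stood apart in control replicate 1. The 12 adrenal markers summed to 2.62 and 3.89 TPM in KspCre DKO kidneys, against 23.8, 2.14 and 1.73 TPM in control kidneys, and all were above 0 in control replicate 1. Cyp11a1, an enzyme of steroid synthesis, was at 0.07 and 0 TPM in KspCre DKO kidneys, against 3.05, 0.29 and 0.22 TPM in control kidneys. Without control replicate 1 the log2 fold changes of Dlk1, H19 and Meg3 were −1.62, −1.58 and −1.89. The part of adrenal, fat, nerve and blood cells in these levels was not tested.

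Epithelial markers differed by segment. The thick ascending limb list summed to 1141 and 635 TPM in KspCre DKO kidneys, against 2272, 2341 and 2388 TPM in control kidneys, with all 8 members below 0. The principal cell list of the collecting duct summed to 2559 and 2547 TPM in KspCre DKO kidneys, against 1059, 1130 and 1085 TPM in control kidneys, with 6 of 9 members above 0. Proximal tubule sums, mostly Kap, were 30183 and 30463 TPM in KspCre DKO kidneys, against 47443, 35818.5 and 38874 TPM in control kidneys. Distal convoluted and connecting tubule sums were 5295 and 6204 TPM, against 9371, 8247 and 6742 TPM. Intercalated cell sums were 253 and 201 TPM, against 266, 318 and 292 TPM. In these lists 5 of 9, 4 of 6 and 6 of 7 tested members lay below 0. The endothelial list summed to 586 and 433 TPM in KspCre DKO kidneys, against 721, 427 and 688 TPM in control kidneys, and the groups overlapped. The nephron progenitor marker Six2 was at 0 in both KspCre DKO libraries and at most 0.09 TPM in the controls. Cited1, the progenitor marker with the smallest p, was at 4.09 and 0 TPM in KspCre DKO kidneys, against 5.49, 10.8 and 15.3 TPM in control kidneys (limma adjusted p = 0.304). Sall1 and Meox1 of the same list overlapped between the groups. The progenitor list summed to 49.2 and 17.3 TPM in KspCre DKO kidneys, against 45.1, 42.9 and 46.2 TPM in control kidneys. Of its 4 tested members 3 lay below 0.

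**Figure D4:**
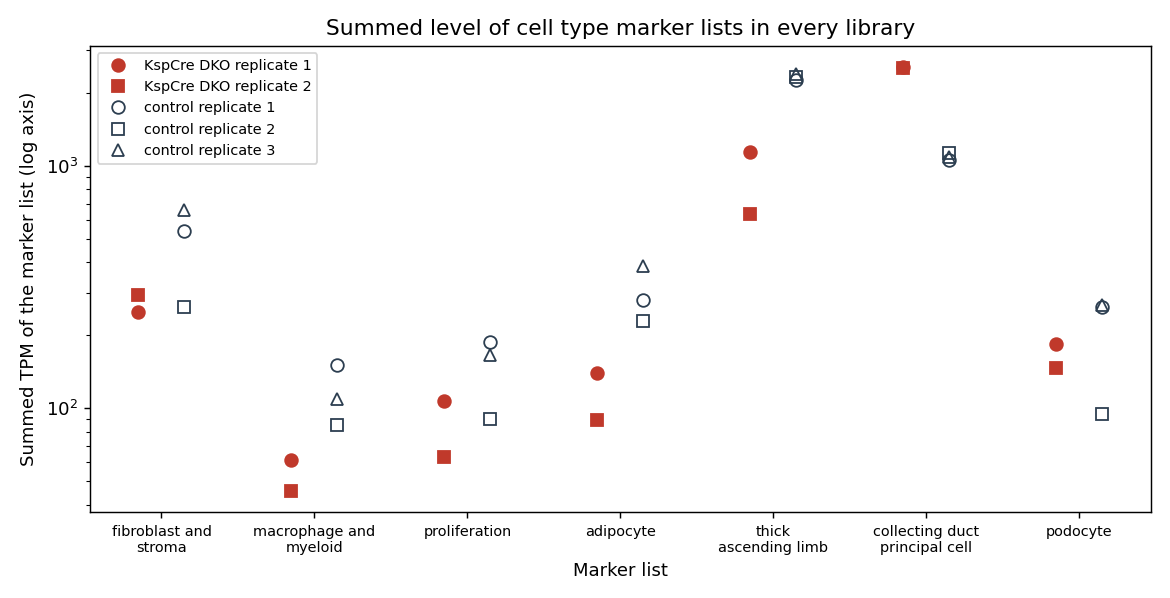
Summed TPM of 7 cell type marker lists (vertical axis, logarithmic; lists on the horizontal axis) in the 2 KspCre DKO libraries (filled) and 3 control libraries (open). Stromal sums of 249 and 295 TPM in KspCre DKO kidneys lie near the 262 TPM of control replicate 2. The macrophage, adipocyte (mostly Fabp4), thick ascending limb and principal cell lists separate the groups. The podocyte and proliferation lists overlap.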

How the data were processed

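Polyadenylated RNA of whole kidneys was sequenced, per the labels' protocols, in 2 KspCre DKO and 3 control libraries. The deposited values are TPM per gene, computed by the authors, with equal sums over the libraries. The submitters' processing notes name STAR 2.2.1, RSEM 1.3.1 and build mm10, without their roles. No annotation release or strand setting is given in the sources used here. Since TPM hold no number of reads, the depth is unknown and no counting error was computed; a value of 0 may be a failed estimate.

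Of 54146 identifiers 52480 had a symbol in the gene name table. Positions and start regions come from RefSeq for GRCm38.p6, matched by symbol. limma 3.58.1 in R 4.3.3 was fitted to log2(TPM + 1) of the 13963 genes whose mean reached 1 TPM (empirical Bayes with intensity trend, two-sided, Benjamini-Hochberg over all genes, called below 0.05). Fold changes are KspCre DKO minus control on that scale and understate changes of low genes. The fit was tested on simulated data, in which the variance of a gene was the same in every library. No simulated library resembled KspCre DKO replicate 2 in its values of 0, so that test does not cover it. The labels do not say that libraries came from separate animals; p-values here measure the spread among libraries, which may be technical. The labels give no batch.

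The genes, their lists and the settings were chosen with earlier results of these data known. Every one of the 35 genes is accounted for, with full statistics for the 12 smallest p; other lists give up to 3 tested genes of smallest p and a set of anchor genes. Markers named because they were listed at 0, and values of genes under the filter that stayed below 1 TPM, were added after their values were seen.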

Additional observations from a re-analysis of the deposited data

How the results depend on the processing

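No imprinted gene was called under any of the 11 other settings, and 4 were called lower in 1 refit that left out a library. The genes called lower were Phlda2, Meg3, Peg3 and Grb10, without KspCre DKO replicate 1. That refit assumes that its lone KspCre DKO library varies like the controls. Of the 21 tested imprinted genes 14 kept their sign in all refits, among them the 8 with the smallest p. In these 8, picked by p from the same data, both KspCre DKO libraries lay below all controls. Leaving out a library could therefore not turn their sign. Adjusted p over all refits ran from 0.0234 to 0.98 for Phlda2, 0.0406 to 0.625 for Meg3, 0.0472 to 0.902 for Peg3 and 0.0472 to 0.997 for Grb10. Over the refits without 1 library, 0 to 4 imprinted genes were called lower, 15 to 16 lay below 0, the median ran from −0.65 to −0.28 and that of maternally expressed genes from −1.61 to −0.63. The maternal median was −0.55 with a pseudocount of 5 and −0.39 without a filter. Below 0 lay 25 of 31 imprinted genes without a filter and 10 of 14 with a mean of at least 5 TPM. The mean of that filter includes the control libraries, through which Meg3, Phlda2 and Mest passed it.

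Signs turned for Cdkn1c with the replicate block (0.17), for Gnas (0.054) and Rian (0.020) with quantile normalization, and among refits without 1 library for Cdkn1c (−0.76 to 0.17), Copg2 (−0.65 to 0.72), Nap1l5 (−0.018 to 1.23), Plagl1 (−0.27 to 0.046), Rian (−0.52 to 0.25) and Ube3a (−1.06 to 0.27). The difference in the log2 ratio of Peg3 to Zim1 turned to −0.17 with a pseudocount of 5. The cause was not tested. That setting for the ratios, a pseudocount of 0.1 for them and the maternal median without Ube3a (−1.33) were chosen after seeing the data.

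Over all genes 14 were called higher and 9 lower. The higher count was 7 and 28 with pseudocounts of 0.1 and 5, 3 without a filter, 23 with median-of-ratios scaling, 35 with quantile normalization, 26 without mitochondrially encoded genes, 6 without trend and 3 with array weights. The lower count beside these was 7 with median-of-ratios scaling, 7 with quantile normalization and 11 without mitochondrially encoded genes. It was 1 without a filter, 3 without trend and 2 with array weights. Without 1 library the counts ran from 3 to 89 higher and from 1 to 466 lower. These scalings moved the median of all genes from −0.14 to between −0.04 and −0.02, and that of the tested imprinted genes was then −0.27 to −0.32. The replicate block, which leaves control replicate 3 without a partner, gave 47 higher and 28 lower, and called no imprinted gene. Libraries that share a replicate number deviated with r of 0.093 and 0.028 across genes. With 2 KspCre DKO libraries their deviations mirror each other, so these r cannot decide whether libraries were paired. The labels give a shared number and no pairing.

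A level near 0 TPM cannot be told from a failed estimate, which limits the 11 genes under the filter and the values of 0 in KspCre DKO replicate 2.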
